A study of Drosophila melanogaster with 3 samples.

Results

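The mitochondrial ribosomal protein genes of Drosophila melanogaster were taken as every protein-coding gene whose symbol begins with mRpL or mRpS in the BDGP 6.54 annotation. There were 73 such genes, 47 for the large subunit (mRpL) and 26 for the small subunit (mRpS), of 13945 protein-coding genes on the 6 chromosome arms. Each was examined for occupancy by CG4328, a LIM-homeodomain transcription factor, measured by chromatin immunoprecipitation with sequencing (ChIP-seq). The fly line carried a transgene in which GFP was fused to the C-terminus of CG4328, and chromatin of mixed-sex embryos aged 8 to 24 h was precipitated with an antibody against GFP. There were 3 biological replicates of this 1 group, and control libraries were not analysed here. The tagged protein came from a stable transgenic insertion in 1 line, so its level relative to the endogenous protein is not known, and whole embryos do not show in which cells a site was occupied. Peak lists hold no expression values, so no tissue marker could be checked.

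Mitochondrial ribosomes sit in the mitochondrial matrix and translate the few messages of the mitochondrial genome, which encode core subunits of the respiratory chain and of ATP synthase. Their ribosomal RNAs are made from mitochondrial DNA, whereas all of their proteins are encoded in the nucleus, translated in the cytoplasm and imported. Many of the proteins, such as mRpL4, mRpL11 and mRpS2, have bacterial counterparts, and others, such as mRpL41, mRpS22 and mRpS29, are found in mitochondrial ribosomes only. LIM-homeodomain factors are best known for specifying neuronal and other cell identities, and homeodomains commonly recognise short TAAT-rich sites.

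One sequence was shared by many of these genes that the choice of members did not use. An E-box, here the palindrome CAGCTG, lay within 50 bp of the gene's 5′ end in 35 of the 73 members (47.9%), against 1332 of all 13945 genes (9.55%). For promoter motifs the start is this 5′ end, and other annotated starts of the same gene were not used. The following windows hold 100 bases, with 50 to each side of the start, of members that also had a CG4328-GFP peak, read 5′ to 3′ on the gene's own strand in dm6, and are shown because the E-box falls so close to the start. Capitals mark the E-box, and no other motif is capitalised. The windows are for mRpL23 (chr3L:2373655-2373754, minus strand), mRpL24 (chr2L:4945312-4945411, minus strand), mRpL19 (chr3R:8674059-8674158, plus strand), mRpL11 (chr3R:14511788-14511887, plus strand), mRpS2 (chr2L:4850370-4850469, minus strand) and mRpS21 (chr3R:13381760-13381859, minus strand).
mRpL23: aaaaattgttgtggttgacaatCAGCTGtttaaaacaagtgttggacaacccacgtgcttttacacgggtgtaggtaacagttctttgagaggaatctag
mRpL24: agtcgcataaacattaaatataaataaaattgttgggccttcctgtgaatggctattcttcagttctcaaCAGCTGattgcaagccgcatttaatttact
mRpL19: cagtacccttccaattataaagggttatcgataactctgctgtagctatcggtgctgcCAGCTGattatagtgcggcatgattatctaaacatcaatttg
mRpL11: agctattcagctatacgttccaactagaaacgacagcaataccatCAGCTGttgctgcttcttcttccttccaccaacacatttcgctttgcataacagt
mRpS2: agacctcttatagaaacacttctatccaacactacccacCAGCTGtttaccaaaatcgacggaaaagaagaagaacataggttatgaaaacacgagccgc
mRpS21: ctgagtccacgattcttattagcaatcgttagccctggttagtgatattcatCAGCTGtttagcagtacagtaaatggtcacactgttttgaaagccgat

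The summits themselves lay elsewhere in the promoter. The next windows reach up to 100 bp to each side of an optimal summit that had a mitochondrial ribosomal protein gene as its nearest start. They are for mRpL23 (chr3L:2373493-2373596, minus strand), mRpL19 (chr3R:8673931-8674130, plus strand), mRpL21 (chr3L:19255099-19255298, minus strand) and mRpL4 (chr2L:16329127-16329326, minus strand), all in dm6 and on the gene's own strand. Capitals mark any of 9 motifs searched on both strands: the DNA replication-related element TATCGATA, Motif 1 (GGTCACACT), Motif 7 (CAGCNCTG), the Motif 6 core GTATNTTT, the E-box, the TATA sequence TATAAA, the homeodomain core TAATTA, the GAGA repeat GAGAGAG and the NRF-1-like GCGCATGC. Matches of different motifs may overlap. The mRpL19 window held 4 matches, that of mRpL4 held 1 and those of mRpL23 and mRpL21 held none. The mRpL23 window is shortened and begins just upstream of its summit. A TATAAA within 100 bp of that summit lay outside the printed bases.
mRpL23: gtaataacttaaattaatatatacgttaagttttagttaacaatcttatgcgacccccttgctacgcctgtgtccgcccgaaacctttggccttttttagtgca
mRpL19: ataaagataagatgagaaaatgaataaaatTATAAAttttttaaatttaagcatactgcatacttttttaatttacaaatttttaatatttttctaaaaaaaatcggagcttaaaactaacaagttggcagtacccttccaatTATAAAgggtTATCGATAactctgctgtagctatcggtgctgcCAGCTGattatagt
mRpL21: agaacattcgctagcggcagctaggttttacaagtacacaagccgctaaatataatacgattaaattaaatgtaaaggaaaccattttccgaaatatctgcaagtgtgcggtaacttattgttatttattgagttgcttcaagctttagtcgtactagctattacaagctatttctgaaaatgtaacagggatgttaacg
mRpL4: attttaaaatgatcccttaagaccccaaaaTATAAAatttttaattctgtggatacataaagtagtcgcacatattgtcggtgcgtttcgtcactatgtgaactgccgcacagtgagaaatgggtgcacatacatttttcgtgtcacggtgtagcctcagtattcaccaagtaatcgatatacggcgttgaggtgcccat

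The files were lists of peaks, each with a summit and the authors' signal value, by which peaks are ranked here with 1 as the highest. There were 3688 optimal peaks, with widths around a median of 450 bp, and the relaxed lists of the pool and of each replicate reach far below it and include background. Each summit was given to whichever protein-coding gene had the closest annotated start. The read depth of the libraries is unknown. A count of members is set beside the share of all protein-coding genes that met the same rule, as a description without a test.

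How often mitochondrial ribosomal protein genes were occupied, relative to genes at large, depended on how summits were assigned. By the nearest start, an optimal peak had a member as its nearest gene for 11 of 73 (15.1%), against 18.8% of all protein-coding genes. The large subunit accounted for 8 of 47 (17.0%) and the small subunit for 3 of 26 (11.5%). With support in all 3 replicates the count was 6 of 73 (8.22%), against 11.4% of all genes. When a summit inside the gene or within 500 bp of it counted instead, 26 members (35.6%) were called, against 23.0% of all genes, so the order of the shares turned. Support means an overlap of at least 1 bp with one of the 3688 highest peaks of a replicate's own list, and a replicate rank below is that of the highest overlapping peak. In the pooled relaxed list 33 members (45.2%) were the nearest gene of a peak, against 60.7% of all genes. Members are short genes in close surroundings, with a median length of 909 bp against 2166 bp for all genes. The median length of genome nearest to their starts was 1522 bp against 4328 bp, and the part of this in the count was not tested.

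Measured from each member's own start, whether or not another start was nearer, the share was higher. An optimal summit lay within 500 bp of an own start in 23 of 73 members (31.5%), against 17.4% of all genes. The large subunit had 14 of 47 (29.8%) and the small subunit 9 of 26 (34.6%). With support in all 3 replicates the count was 12 (16.4%), against 9.91% of all genes. In the pooled relaxed list it was 48 (65.8%), against 49.6%. Among the 3688 highest peaks of each replicate the member count was 23 in replicate 1 (31.5%, against 17.0% of all genes), 19 in replicate 2 (26.0%, against 16.9%) and 22 in replicate 3 (30.1%, against 15.8%). The member share was above that of all genes in each of the 3 replicates.

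Members also differed from all genes in the arrangement of their promoters, and the part of this in the difference was not tested. A start of another protein-coding gene lay on the opposite strand within 500 bp upstream (a head-to-head pair) for 53 of 73 members (72.6%), against 27.4% of all genes, 39.8% of cytoplasmic ribosomal protein genes and 43.8% of respiratory chain and ATP synthase genes. Among head-to-head genes, 19 of the 53 members (35.8%) had an optimal summit within 500 bp of their start, close to the 34.3% of all head-to-head genes. Among genes without such a partner it was 4 of 20 members (20.0%) against 11.0% of all genes, which was not tested. By the nearest start, 7 of the 53 head-to-head members (13.2%) were called, against 22.8% of all head-to-head genes. Of the 19 summits at head-to-head members, 13 lay between the starts of the pair (68.4%, against 73.1% over all genes), and the member's own start was the nearest in only 6 (31.6%, against 53.2%). One peak between such starts cannot be assigned to either gene from these lists.

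**Figure D1:**
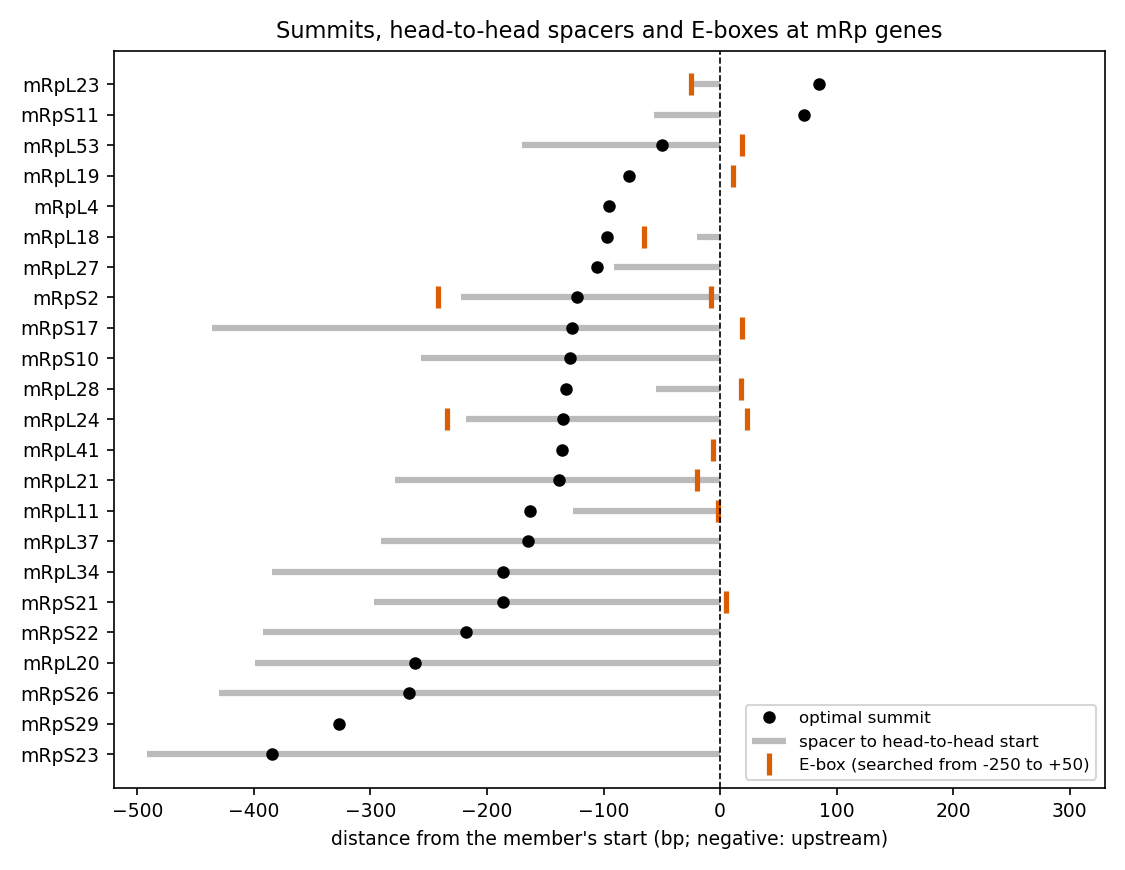
Position of the highest optimal summit (black points) relative to the start of each of the 23 members with a summit within 500 bp, in bp with negative values upstream; grey bars span the gap to the head-to-head start and orange ticks mark E-boxes. The summits lie upstream in 21 members and downstream in mRpL23 and mRpS11, and most E-boxes lie near the start rather than at the summit. At mRpL23, with 3 annotated starts, the summit is placed from the nearest start and the E-box from the gene's 5′ end. These 2 are 136 bp apart, further than drawn.

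The position of the summits relative to the start was near that over all genes with such a summit. They lay upstream in 21 of 23 members (91.3%, against 84.4%), at a median distance of 135 bp (against 152 bp). The exceptions were mRpL23 and mRpS11, each with a summit inside the gene. The mRpL23 summit lay 85 bp downstream of the nearest of its 3 annotated starts, and the mRpS11 summit 72 bp downstream of its start. At mRpL23 the side depended on which start was nearest. Its summits in replicates 1 and 2 lay 71 and 84 bp upstream of the nearest start, and that in replicate 3 lay 43 bp downstream.

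**Figure D2:**
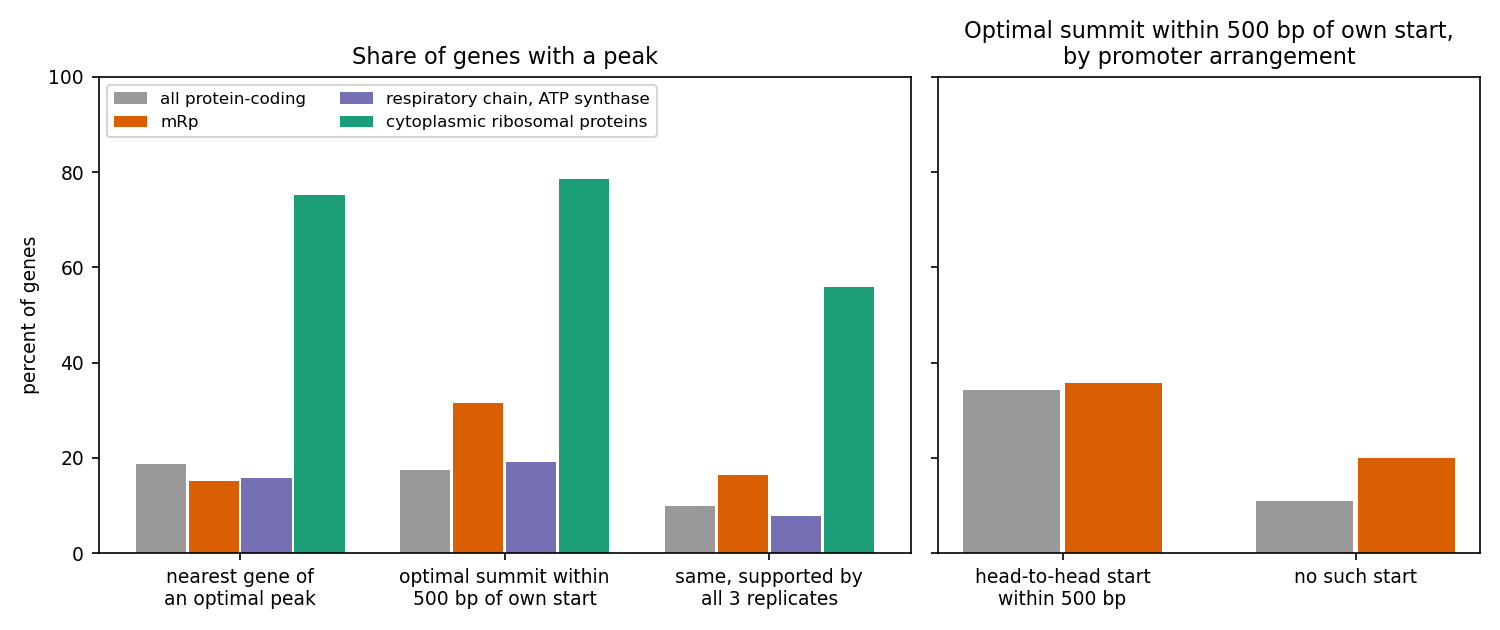
Left, percent of all protein-coding genes (grey), mRp genes (orange), respiratory chain and ATP synthase genes (purple) and cytoplasmic ribosomal protein genes (green) with an optimal peak under 3 rules. Right, percent with an optimal summit within 500 bp of an own start, split by the presence of a head-to-head start within 500 bp; the mRp and all-gene bars stand at 35.8% and 34.3% with such a start.

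Among large-subunit genes the highest peak was at mRpL41, whose product has no bacterial counterpart. The peak (dm6, 2R, 15217546 to 15217970) ranked 5 in the optimal list and overlapped peaks ranked 8, 9 and 2 in replicates 1, 2 and 3. Its summit lay 136 bp upstream of mRpL41, which has no head-to-head partner within 500 bp.

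At mRpL23, whose bacterial counterpart lies at the exit of the peptide tunnel, the peak (3L, 2373443 to 2373775) ranked 109, with replicate ranks of 124, 132 and 74. The peak near mRpL24 (2L, 4945343 to 4945618), another protein whose bacterial counterpart lies near the tunnel exit, ranked 210, with replicate ranks of 175, 398 and 132. Its summit was 135 bp upstream of mRpL24 and 83 bp from betaggt-I, a protein prenyltransferase subunit gene. These peaks were thus within the highest 400 of every replicate list.

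The next large-subunit peaks ranked between 1037 and 2321. The peak near mRpL37 (3R, 10784032 to 10784481) ranked 1037, with replicate ranks of 783, 3362 and 492. Its summit lay 165 bp upstream of mRpL37. The peak of mRpL34 (2R, 16098537 to 16098986) ranked 1038 and overlapped peaks ranked 1517 and 1709 in replicates 1 and 2 and none in replicate 3. Its summit was 186 bp upstream, in a gap of 384 bp to Dg, the dystroglycan gene. The peak near mRpL20 (3L, 13017904 to 13018353) ranked 1471, with replicate ranks of 1342, 1515 and 1872, and Icmt, a protein methyltransferase gene, had the nearer start. The mRpL27 summit, 106 bp upstream at rank 2133, was inside the neighbouring CG15435 and had no overlapping peak in replicate 3. At mRpL19 (3R, 8673806 to 8674255) the rank was 2321, with replicate ranks of 3136, 1742 and 3023 and a summit 78 bp upstream.

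The other large-subunit peaks were among the last of the optimal list. Those near mRpL11, mRpL28 and mRpL18 ranked 3014, 3041 and 3385, and each had another gene's start nearer, that of HtrA2, a mitochondrial protease gene, at mRpL11 and that of Taz, the tafazzin gene of cardiolipin remodelling, at mRpL18. The mRpL53 summit, at rank 3116, lay 50 bp from both mRpL53 and CG33155, a tie, and inside AGO1, an Argonaute gene. It had no overlapping peak in replicate 3. The mRpL21 peak (3L, 19254974 to 19255423) ranked 3360, with replicate ranks of 9791, 4120 and 1618. The mRpL4 peak (2L, 16329002 to 16329451) ranked 3470, with replicate ranks of 3329, 3520 and 5190. Of these 6 peaks none was supported by all 3 replicates.

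One assignment to the large subunit was distant. The peak ranked 1301 (3R, 11392912 to 11393091; replicate ranks 1273, 2213 and 817) had mRpL40 as the nearest start, 14911 bp away. Its summit was in the 3′ UTR of pros, a homeodomain regulator of neural differentiation. Of the 11 nearest-start members it was the only one beyond 500 bp, and 63.0% of all genes with an optimal peak had their best summit within that distance.

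Among small-subunit genes the 2 highest peaks each had another gene as the nearest start. The peak near mRpS10 (3R, 15229350 to 15229727) ranked 13, with replicate ranks of 15, 25 and 7. Its summit stood 129 bp from mRpS10 and 128 bp from Art3, an arginine methyltransferase gene, so 1 bp decided the assignment. The peak near mRpS23 (2L, 13835315 to 13835629) ranked 54, with replicate ranks of 34, 75 and 69. It lay 384 bp upstream of mRpS23 and 108 bp from CenG1A, a gene for a GTPase-activating protein. Both were within the highest 100 of every replicate list.

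The remaining small-subunit peaks ranged from rank 739 to rank 3544. The peak near mRpS2 (2L, 4850317 to 4850766) ranked 739, with replicate ranks of 795, 811 and 730. The nearer start was that of Mon1, a gene of endosome and vacuole trafficking. The peak near mRpS26 (3L, 18106087 to 18106536) ranked 1128, with replicate ranks of 2020, 1156 and 840. The gap of 392 bp between mRpS22 and CG5003 held 2 optimal peaks, ranked 1540 (218 bp from mRpS22, nearer to CG5003) and 2494 (3R, 27916667 to 27917116, 16 bp from mRpS22). Replicates 1 and 3 also had a peak at each place, ranked 1130 and 787 at 227 and 223 bp upstream and 3686 and 1112 at 24 bp upstream. Replicate 2 had 1 peak, ranked 3617, with its summit 88 bp upstream. The peaks at the 2 places overlap each other, so their support is shared.

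The last small-subunit peaks ranked between 2886 and 3544. The peak near mRpS21 (rank 2886, nearest start Droj2, a DnaJ-like chaperone gene) overlapped peaks ranked 6209 and 5431 in replicates 1 and 2 and none in replicate 3, and was the only one of the members' peaks with support in no replicate. The mRpS17 peak (2R, 24174343 to 24174792), in the gap to Nop60B, the pseudouridine synthase gene, ranked 3032, with replicate ranks of 3625, 3443 and 2584. The peak near mRpS29, whose mammalian counterpart DAP3 binds GTP, ranked 3383, 327 bp upstream, and the DNA repair gene rad50 had the nearer start. The mRpS11 peak (3R, 17072579 to 17073028) ranked 3544, with replicate ranks of 5793, 4555 and 2099.

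**Figure D3:**
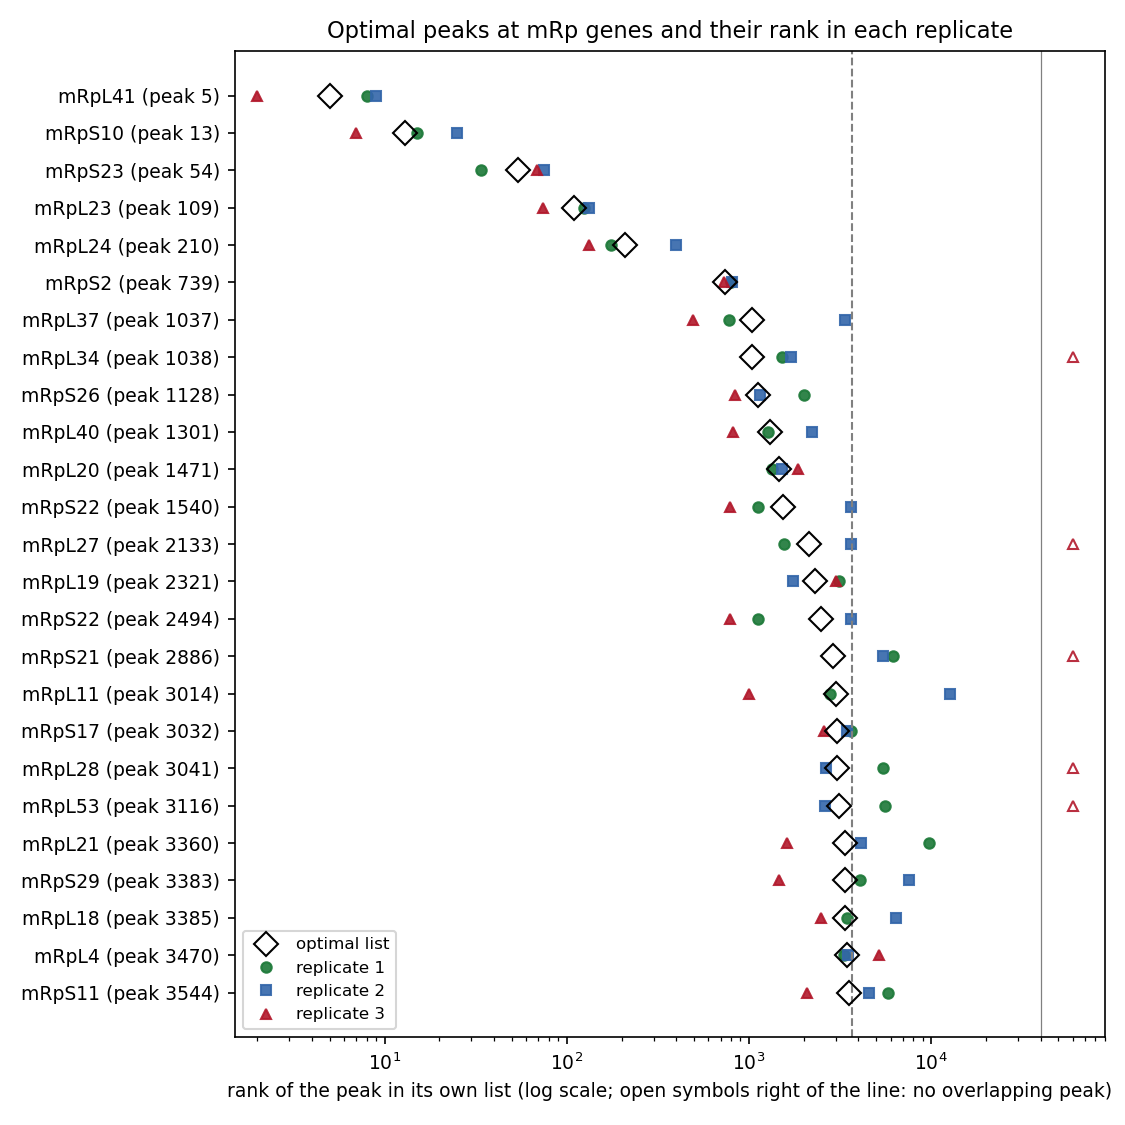
Rank (log scale, 1 is the highest) of the 25 optimal peaks at members in the optimal list (open diamonds) and of the highest overlapping peak in replicate 1 (circles), replicate 2 (squares) and replicate 3 (triangles); the dashed line marks rank 3688, and open triangles at the right mark 5 peaks with no overlapping peak in replicate 3. The 5 highest peaks have all their replicate ranks within the first 400, and several peaks from rank 2886 on have a replicate rank past the dashed line.

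Over both rules 24 of 73 members had an optimal peak, through 25 peaks, and 13 of them only within 500 bp with another start nearest. Of all protein-coding genes 18.8% were called by the nearest start and 17.4% within 500 bp, and their share by either rule is not given here. Of the 25 peaks 14 were supported by all 3 replicates (56.0%), 5 by 2, 5 by 1 and 1 by none, against 56.2% supported by all 3 over the whole optimal list. Each replicate supported 19 of the 25 (76.0%), whereas over all optimal peaks the shares were 85.7%, 83.7% and 72.4% in replicates 1, 2 and 3. The median rank of the 25 peaks was 2133, lower in the list than the 1844.5 of all optimal peaks. No peak overlapped in the whole replicate 3 list for 5 of the 25 (20.0%), against 13.6% of all optimal peaks.

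The relaxed lists separated replicate 3 from the others. A relaxed summit within 500 bp of an own start was present for 60 members in replicate 1 (82.2%, against 51.7% of all genes), 57 in replicate 2 (78.1%, against 52.9%) and 31 in replicate 3 (42.5%, against 36.3%). For 28 members (38.4%) it was in all 3 lists, against 24.3% of all genes. For 26 (35.6%) it was in replicates 1 and 2 and not in replicate 3, against 19.7% of all genes, and 8 members (11%) had none in any replicate, against 31.9%. The read depth of replicate 3 relative to the others is not known, and its part in these counts was not tested.

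No optimal peak was found by either rule for 49 members. Of these, 28 had a peak in the pooled relaxed list and 21 did not. Of all protein-coding genes 60.7% were the nearest gene of a pooled peak and 49.6% had a pooled summit within 500 bp. The shares of all genes by either rule are not given here, so these counts are a description only. The nearest to the end of the optimal list at rank 3688 were mRpL35 at pooled rank 3734 (replicate ranks 3556, 3058 and 3750), mRpS6 at 3835 (3269, 3709 and 6011) and mRpL10 at 3841 (7132 and 3335, none in replicate 3). Next were mRpS24 at 3975 (3174, 13323 and 2768) and mRpS7 at 4199 (3373 and 10778, none in replicate 3). For these members a replicate rank is that of the highest peak nearest to the member or within 500 bp of its start. Overlap with the pooled peak was not required. The replicate 2 peak given for mRpS7 had its summit 617 bp downstream of the start, whereas the pooled summit lay 127 bp upstream. The replicate ranks of these members overlap those of the last members inside the list, such as mRpL4 and mRpS11. In pooled rank they all stand past the end of the list. The end of the list thus divides them, and a gap in the replicate ranks does not. The mRpL35 summit lay in the gap to Mitofilin, a gene for a protein of the mitochondrial cristae.

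The 23 other members with a pooled peak and no optimal one, in order of pooled rank, were mRpL32, mRpL17, mRpL54, mRpS31, mRpS18B, mRpL13, mRpS16, mRpL39, mRpL48, mRpL22, mRpL42, mRpS25, mRpS18C, mRpL1, mRpL16, mRpL50, mRpL51, mRpL36, mRpS5, mRpL12, mRpL47, mRpL49 and mRpS28. Those with no pooled peak were mRpL2, mRpL3, mRpL9, mRpL14, mRpL15, mRpL30, mRpL33, mRpL38, mRpL43, mRpL44, mRpL45, mRpL46, mRpL52, mRpL55, mRpS9, mRpS14, mRpS18A, mRpS30, mRpS33, mRpS34 and mRpS35. Of all members, mRpL14 alone had no peak in any of the 5 lists. The start of mRpS5, a gene in the proximal part of 3L, was 1658344 bp from the nearest optimal summit, the largest such distance among members, and the last optimal peak on that arm ended at 22879076.

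By chromosome arm, members with an optimal summit within 500 bp were 6 of 12 on 2L, 6 of 12 on 2R, 4 of 17 on 3L and 7 of 21 on 3R. The shares over all genes of these arms were 18.4%, 16.3%, 18.3% and 18.4%. On the X chromosome it was 0 of 11 members, by this rule and by the nearest start, where 330 of the 2196 X-linked genes (15.0%) had such a summit. With 11 genes a count of 0 is a small sample, and it was not tested.

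Of the motifs searched in promoters, the E-box had the largest difference in share between members and all genes. In the window from 250 bp before to 50 bp after the gene's 5′ end, CAGCTG was present in 40 of 73 members (54.8%). It was in 17.7% of all protein-coding genes and 9.68% of cytoplasmic ribosomal protein genes. The 45 sites had a median position 5 bp downstream of the start, against 48 bp upstream over all genes. The 6 start windows printed above were chosen for an E-box within 50 bp of the start, so they do not bear on this median. The E-box was in 12 of the 23 members with an optimal summit within 500 bp (52.2%) and in 28 of the 50 without (56.0%). The 14 sites at members with a summit lay between 32 and 191 bp from it, with a median of 124.5 bp.

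The other promoter motifs differed less. TATCGATA, the element bound by the factor DREF, was in 15 members (20.5%, against 9.36% of all genes and 30.1% of cytoplasmic ribosomal protein genes). GGTCACACT was in 8 (11.0%, against 6.05%), CAGCNCTG in 10 (13.7%, against 7.31%) and GTATNTTT in 13 (17.8%, against 14.9%). TATAAA (46.6%, against 45.8%) and the homeodomain core TAATTA (20.5%, against 20.4%) were at the shares of all genes. GAGAGAG was in 1 member (1.37%, against 5.87%) and GCGCATGC also in 1 (1.37%, against 1.05%).

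Within 100 bp of the 25 summits the motifs were at low counts. The homeodomain core TAATTA was near 3 summits (12.0%), those of mRpL24, mRpS2 and mRpL27, against 18.0% of all optimal summits. The E-box was near 3 (12.0%, against 9.90%), those of mRpL19, mRpL53 and mRpL18, and TATCGATA was near 1, that of mRpL19, as in its printed window, and near 3.42% of all optimal summits. TATAAA was near 6 (24.0%, against 34.8%) and GTATNTTT near 4 (16.0%, against 10.7%). All of the members' peaks but that of mRpL40 lay within 500 bp of a member's start. Over the optimal summits within 500 bp of any start, the shares were 18.3% for TAATTA, 11.6% for the E-box and 6.28% for TATCGATA. They were 35.8% for TATAAA and 10.8% for GTATNTTT. The median GC content was 32.8% at members' summits, 36.3% at all optimal summits and 35.3% at optimal summits within 500 bp of a start. In promoters it was 34.7% against 38.0%, and the part of base composition in the motif shares was not tested.

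**Figure D4:**
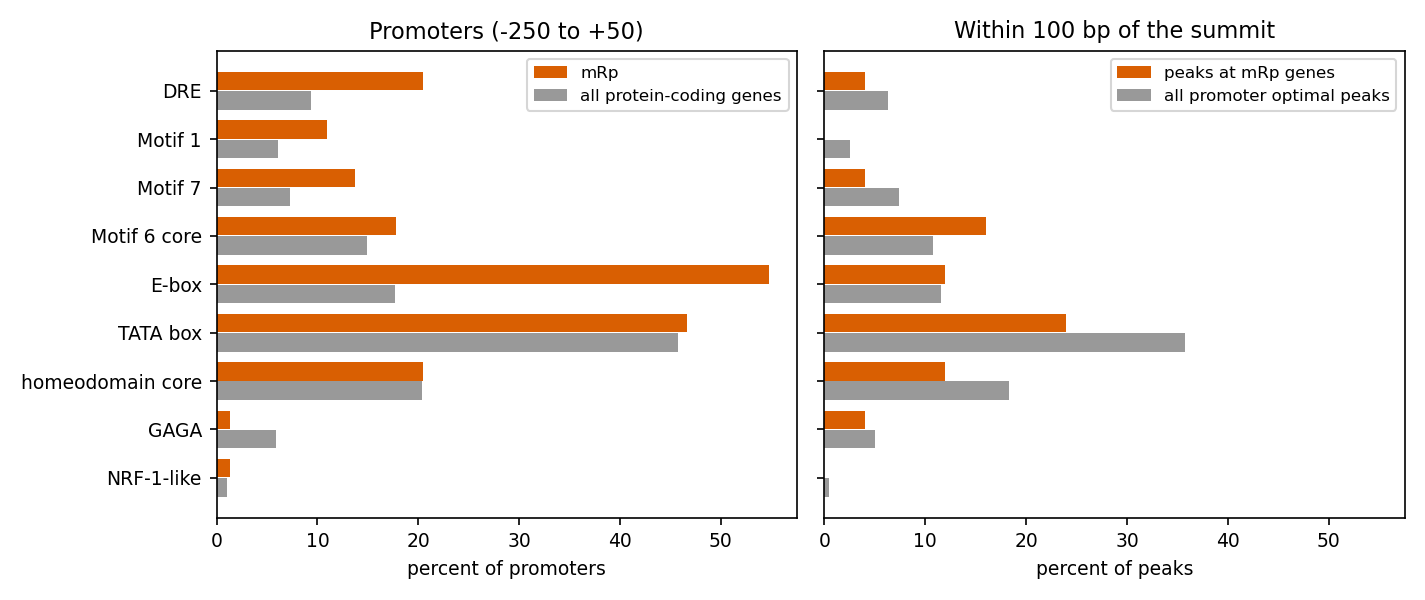
Left, percent of promoters (250 bp before to 50 bp after the gene's 5′ end) with each motif on either strand, for mRp genes (orange) and all protein-coding genes (grey). Right, percent of summits with each motif within 100 bp, for the 25 peaks at members (orange) and all optimal peaks within 500 bp of a start (grey); the E-box stands at 54.8% of mRp promoters and at 12.0% of their summits.

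Cytoplasmic ribosomal protein genes were occupied far more often than the mitochondrial ones. An optimal summit lay within 500 bp of the start in 73 of 93 of them (78.5%). Among genes that were the nearest of an optimal peak, the median best rank was 619 for the cytoplasmic set and 2494 for the mitochondrial set. The median distance was 22 bp and 95 bp. Over all protein-coding genes nearest to an optimal peak, the median best rank was 1554.5 and the median distance 236.5 bp. Respiratory chain and ATP synthase genes, the products of which assemble with the proteins made on mitochondrial ribosomes, had 17 of 89 (19.1%), near the 17.4% of all genes.

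Other genes of mitochondrial gene expression are read against the same 17.4% of all genes within 500 bp of an optimal summit. The mitochondrial ribosomal proteins under another symbol, tko and bonsai, had 0 of 2 by either rule. The mitochondrial tRNA synthetase genes had 0 of 15, and the translation factor genes had 0 of 8 within 500 bp. Of 11 genes of mitochondrial DNA maintenance and transcription, mtSSB (single-stranded DNA binding, rank 1136, 255 bp upstream) and mTerf5 (of the mitochondrial transcription termination factor family, rank 2177, 39 bp downstream) had a summit within 500 bp (18.2%). Of 15 import genes, Tom7 (rank 346), Tim10 (rank 1590) and Tim9a (rank 2880) did (20.0%), each with another start nearer. Of 5 regulators of mitochondrial genes, Dref, which encodes the factor that binds TATCGATA, was the 1 with a summit within 500 bp (20.0%), at rank 178 and 56 bp upstream. That summit was nearer to RpL13, a cytoplasmic ribosomal protein gene, 28 bp away.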

How the data were processed

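Peak lists from anti-GFP ChIP-seq of 3 biological replicates were used as deposited. According to deposited notes, the authors called a relaxed list for each replicate against a control and another on the 3 replicates pooled, and derived the optimal list from these. No aligner, peak caller or threshold is given in the sources used here. The signal value is a score the authors deposited on a scale that is not stated, and served here for ranks alone. The −log10 q values that the authors deposited enter no result. The 5 lists in dm6 were used and the 5 in dm3 were not. All records were kept, including 9 repeated intervals in the optimal list.

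Summits were assigned to the nearest start of a protein-coding gene (release 6 genome, BDGP 6.54, Ensembl release 115), ties counting for every tied gene (86 optimal peaks, 1 at a member). Coordinates are 1-based. Sequences came from the reference genome. Bases of untranslated regions more than 50 bp from a start were not printed, and no window on arm 2R was. The script was tested on simulated lists. Python 3.11.15, pandas 2.3.3, numpy 2.4.6 and matplotlib 3.10.9 were used. The members, lists, motifs and rules were chosen with earlier results of these data known. Named were every member nearest to an optimal peak, every other member within 500 bp of one, and the other members in order of pooled rank, the first 5 with values. With 1 group and no control group no test was made. Nothing in the labels beyond the replicate numbers says that embryo collections were separate. Alternatives were the highest 1844 optimal peaks, the pooled list, other distances, other gene models and assignments, and leaving out each replicate. The neighbouring gene at 1 of these peaks is not reported here.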

Additional observations from a re-analysis of the deposited data

How the results depend on the processing

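Of 62 alternatives 35 left a count within 1.5 times of the reported one, or a median within 1 SD of the replicates' own medians, and 27 moved it. These alternatives are not all separate checks. The count by own start cannot change when all annotated genes compete. Leaving out a replicate gives the same counts for nearest members and for nearest members supported by all replicates, and both were included. The 11 members nearest to an optimal peak became 4 with the highest 1844 optimal peaks, 33 with the pooled list, 26 when a summit in or within 500 bp of the gene counted, and 6 to 8 without 1 replicate. The 8 large-subunit genes became 4, 23, 15 and 4 to 6 in the same order, and the 3 small-subunit genes became 0, 10 and 11 under the first 3. Within 500 bp of an own start the 23 members became 11 with the shorter list, 48 with the pooled list and 12 to 15 without 1 replicate. The counts without a replicate fall by construction, since only peaks that both other replicates supported were kept. The member share by own start (16.4% to 20.5%) was then still above that of all genes (10.6% to 12.8%), as with the shorter list (15.1% against 10.4%). By the nearest start the member share was below that of all genes in the same alternatives. It was 8.22% to 11.0% against 12.3% to 14.3% without 1 replicate, and 5.48% against 10.9% with the shorter list. By gene body the share of members, 35.6%, was above the 23.0% of all genes, which is the opposite order to that by the nearest start. The 6 nearest members supported by all 3 replicates became 3 with the shorter list. Head-to-head members fell from 53 to 25 at 250 bp. The shares of all genes for this count and for the supported count with the shorter list are not given here. Both are a description only. The median distance of 95 bp became 161 bp with the shorter list, and the median rank of 2494 became 573.5 with the shorter list and 6009 with the pooled list, which differ in length. No paired analysis was possible because there is 1 group. The unknown read depth limits what a missing peak in replicate 3 shows.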
